A study of Mus musculus with 6 samples.

Results

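The genes described here are the integrin subunits *Itga3*, *Itga4*, *Itga5*, *Itga6*, *Itga7*, *Itga9*, *Itga11*, *Itgav* and *Itgb1* together with *Vcam1*, 10 of the 46078 genes in the count table of differentiated C2C12 cells. They were found by symbol, and all 10 had a row. The set was put together with the values of KO and WT libraries in view, and the near absence of *Itga4* reads in KO was part of the reason for choosing it, so every KO to WT difference of these 10 genes is given as a description with no test. C2C12 is an immortalized mouse myoblast line whose cells leave the cell cycle and fuse into myotubes once serum is withdrawn. Both genotypes were C2C12 cells taken after 2 days of differentiation by serum withdrawal with an ITS supplement. KO cells carried a CRISPR-Cas9 knockout of *Hnrnpa2b1*, which encodes an RNA-binding protein, and WT cells did not. Each genotype had 3 libraries, called KO1 to KO3 and WT1 to WT3. The methods describe 3 independent clones of each genotype, without saying which clone gave which library, so the errors and p-values measure the spread between these libraries.

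Library totals ran from 33605258 to 40558740 reads counted on genes, and values of a genotype are always given in the order of its libraries 1, 2 and 3. Read counts are given as CPM, which compare libraries for one gene. TPM values, which are corrected for transcript length, are used to compare genes with each other. Positions are on GRCm38, which the deposited gene coordinates match. RNA of *Hnrnpa2b1* itself was 159, 195 and 249 CPM in KO, against 225, 229 and 252 CPM in WT (log2 fold change −0.23 ± 0.18, adjusted p = 0.381), so the genotypes overlapped. The paper checked the knockout of the clones on protein, by Western blot and immunofluorescence, which these RNA values do not measure. Log2 fold changes are KO relative to WT and carry their SE. The adjusted p comes from edgeR's quasi-likelihood test with Benjamini-Hochberg adjustment over 14828 tested genes, here and below. All 6 myogenic markers found of 7 listed (*Myod1*, *Myf5*, *Myog*, *Des*, *Cdh15*, *Myh3*) had reads in every library, and their summed CPM was 4451 to 9432 in KO and 8509 to 10003 in WT. Of the 6, 2 rose, 1 fell and 3 did not pass the threshold of 0.05 (3 of 6 called, beside 22.7% of all tested genes, 12.1% higher and 10.6% lower). *Myod1*, the gene of the myogenic factor MyoD, had 171, 270.1 and 194 CPM in KO, against 98.5, 126 and 96.0 CPM in WT (log2 fold change 0.99 ± 0.20, adjusted p = 0.0141). *Cdh15*, encoding M-cadherin, rose too (log2 fold change 0.70 ± 0.17, adjusted p = 0.0258), whereas *Myf5*, another myogenic factor gene, fell (log2 fold change −1.50 ± 0.39, adjusted p = 0.0303). Each of these 3 calls was lost without WT1 or WT3 (adjusted p = 0.0695 to 0.13), that of *Myf5* also without WT2 or KO3 (adjusted p = 0.0826 and 0.0786) and that of *Cdh15* also without KO3 (adjusted p = 0.0615). *Myog* had a log2 fold change of 0.06 ± 0.24 and *Des* of −0.34 ± 0.33, and without KO1 *Des* passed (log2 fold change −0.78, adjusted p = 0.034). The embryonic myosin gene *Myh3* had 4146, 1007 and 1423 CPM in KO, against 4474, 4589 and 5811 CPM in WT (log2 fold change −1.18 ± 0.51, adjusted p = 0.126), and it passed in DESeq2 (adjusted p = 0.0247), with no filter on low counts (adjusted p = 0.000809), in limma on log2(TPM + 1) (adjusted p = 0.0391) and without KO1 (log2 fold change −2.04, adjusted p = 0.00145). Summed CPM was 2.40 to 3.83 in KO and 1.95 to 2.46 in WT for 7 haematopoietic markers, with *Cd3e*, a T cell marker, at 0 in every library. For 6 endothelial markers the sums were 0.336 to 1.44 and 1.95 to 3.56. They were 0.0976 to 2.32 and 0.305 to 0.550 for 5 epithelial markers, and 13.5 to 29.9 and 2.78 to 4.53 for 5 glial and neural markers. *Tubb3* led the last sums and rose (log2 fold change 2.76 ± 0.385, adjusted p = 0.00422). The endothelial marker *Kdr* fell on 2 to 51 reads (log2 fold change −2.15 ± 0.59, adjusted p = 0.0363). In the endothelial list, as in the glial and neural list, 1 of 3 tested genes was called (33.3%, beside 22.7% of all tested genes). The highest epithelial sum was that of KO1, which had 79 reads of *Cdh1*, against 5 and 1 in KO2 and KO3. The part of these other markers in the integrin values was not tested.

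Integrins are receptors made of 1 alpha and 1 beta subunit that span the cell membrane, bind matrix or cell surface ligands outside and couple to actin inside. All 8 alpha subunits described here can pair with the beta1 subunit encoded by *Itgb1*. The alpha7 subunit, with *Itga3* and *Itga6*, belongs to the laminin-binding group and is the main laminin receptor of skeletal muscle. The subunits of *Itga5* and *Itgav* bind ligands with an RGD sequence such as fibronectin and vitronectin, that of *Itga11* binds fibrillar collagen, and those of *Itga4* and *Itga9* form a group of their own. *Vcam1* encodes a cell surface ligand of the receptor formed by the products of *Itga4* and *Itgb1*, and both sides of this pair are known from studies of myoblast contact and fusion.

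The promoters of the genes with the lowest and the highest fold change among the 9 that passed the filter on low counts are shown for reference, those of *Itga4* and *Itga3*. Each covers 250 bases before to 50 bases after a transcription start listed by RefSeq for GRCm38.p6, 300 bases in all. Capitals mark an E-box (CANNTG, the letters that MyoD family factors bind) or a GC box (GGGCGG, or CCGCCC on the other strand).
*Itga4* (chr2:79255176-79255475, plus strand): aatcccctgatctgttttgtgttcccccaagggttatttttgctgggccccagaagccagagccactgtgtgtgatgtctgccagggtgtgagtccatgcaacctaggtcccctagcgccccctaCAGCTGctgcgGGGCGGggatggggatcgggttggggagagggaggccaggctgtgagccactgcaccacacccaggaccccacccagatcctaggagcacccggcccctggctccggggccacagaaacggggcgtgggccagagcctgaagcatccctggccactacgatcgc
*Itga3* (chr11:95076665-95076964, minus strand): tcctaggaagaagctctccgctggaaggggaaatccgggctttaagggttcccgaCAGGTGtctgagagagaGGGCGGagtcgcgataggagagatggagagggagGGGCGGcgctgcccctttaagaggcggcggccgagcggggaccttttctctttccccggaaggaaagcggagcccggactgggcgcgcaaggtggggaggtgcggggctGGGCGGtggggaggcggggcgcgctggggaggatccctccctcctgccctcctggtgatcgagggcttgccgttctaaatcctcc
The *Itga4* window held 1 E-box and 1 GC box, which lay close together without overlapping, and 10 CpG dinucleotides. The *Itga3* window held 1 E-box, 3 GC boxes and 24 CpG dinucleotides. Among 32851 promoter windows of this length, 72.3% held an E-box and 35.7% a GC box, the median number of CpG dinucleotides was 7, with quartiles of 3 and 20. The windows of *Itgav* and *Itgb1* had 24 and 27 CpG dinucleotides, 1 GC box each and no E-box. Windows of *Itga5* and *Itga11* had 2 and 1 E-boxes. The table matched 7 of the 10 genes and held no entry for *Itga6*, *Itga7* and *Vcam1*, and its windows for *Itga9* and for a second start of *Itga3* lay away from the start of the annotated gene. These matches describe the letters of the windows only.

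*Itga4* (ENSMUSG00000027009, chr2:79255426-79333123, plus strand) was nearly without reads in KO. Its exons gave 2, 0 and 1 reads in KO, against 115, 154 and 133 reads in WT, or 3 of the 115457441 counted reads of KO and 402 of the 108906429 of WT. All 3 WT libraries lay between 3.33 and 4.69 CPM, and no KO library passed 0.0560 CPM. Scaled by library totals multiplied by their TMM factors, as CPM were, WT held 154 times the reads of KO. The exact binomial 95% interval was 52.5 to 752 and covers counting error only. The TPM values were 0 in every KO library and 0.306, 0.396 and 0.256 in WT1 to WT3. So *Itga4* was also a weakly expressed gene in WT, below 1 TPM in each library, and its difference rests on 115 to 154 reads per WT library. Leaving out each library in turn, the ratio lay between 98.4 and 326. The lowest was without KO2, which had 0 of the 3 KO reads, and the highest without KO1, which had 2.

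Of the merged exons of *Itga4*, 8.04% overlap exons of *Cerkl*, a neighbouring gene on the opposite strand whose 3′ end meets that of *Itga4*. *Cerkl* itself had 0 to 4 reads in every library. The use of strand in counting is not given in the sources used here, so a read in the shared stretch cannot be assigned with certainty. The nearest genes that passed the count filter were examined on each side, 3 before and 3 after *Itga4* on chromosome 2. *Ube2e3*, 334 kb before it, had 16.6, 24.8 and 18.7 CPM in KO, against 26.9, 26.8 and 31.4 CPM in WT (log2 fold change −0.50 ± 0.18, adjusted p = 0.081). *Ssfa2*, 302 kb after it, had 24.1, 33.1 and 30.0 CPM in KO, against 31.8, 31.5 and 24.6 CPM in WT (log2 fold change −0.01 ± 0.17, adjusted p = 0.971). Neither passed the threshold of 0.05, and the libraries of the genotypes overlapped for *Ssfa2* but not for *Ube2e3*, which was lower in all 3 KO libraries and passed without KO2 (log2 fold change −0.68, adjusted p = 0.0319).

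The predicted gene *Gm14461*, 953 kb before *Itga4*, fell in KO, with 0, 0 and 0 reads in KO, against 11, 9 and 13 reads in WT (adjusted p = 0.00788). Against a limit of 3 counts per KO library this is at least 4.18-fold lower. *Cwc22* before it (log2 fold change 0.08 ± 0.13, adjusted p = 0.686) and *Dnajc10* after it (log2 fold change 0.32 ± 0.12, adjusted p = 0.096) did not pass. *Pde1a*, which encodes a phosphodiesterase that cleaves cyclic nucleotides, had 84, 1 and 4 reads in KO, against 34, 88 and 46 reads in WT (log2 fold change −1.01 ± 1.20, adjusted p = 0.566). KO2 and KO3 were nearly empty of *Pde1a* reads whereas KO1 lay within the WT range, and without KO1 its log2 fold change was −4.71 (adjusted p = 0.00375). Within 5 Mb on either side of the start of *Itga4*, 10 of 33 other tested genes passed the threshold (30.3%, beside 22.7% of all tested genes). Of these, 4 were higher and 6 lower in KO, and the median log2 fold change of the 33 was −0.05, beside 0.03 over all tested genes. All 10 start before *Itga4*, and no tested gene that starts after it in this window passed. The cause of this difference between the sides was not tested. *Itgav* starts 4.47 Mb after *Itga4* and *Itga6* starts 7.51 Mb before it on the same chromosome.

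**Figure D1:**
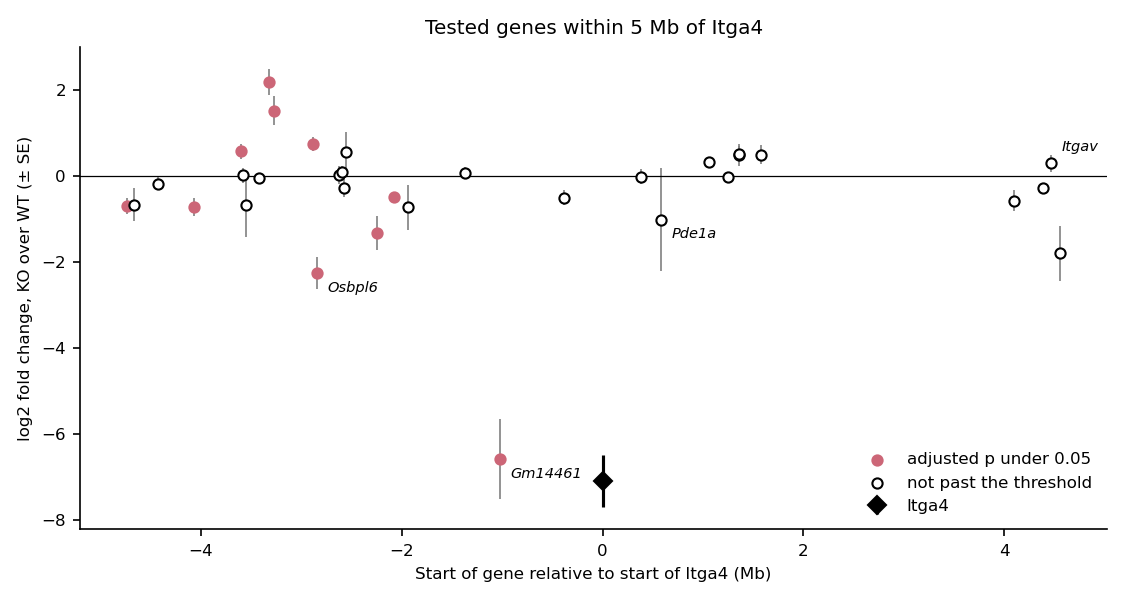
Log2 fold change of KO over WT (± SE, edgeR) of the 33 tested genes within 5 Mb of *Itga4*, against the distance in Mb between their starts and that of *Itga4* (diamond). *Gm14461* and *Itga4* lie far below the others, the median of the 33 being −0.05, and since KO had 0 and 3 reads of them their fitted values depend on the prior count and are not fold sizes.

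The tested genes whose pattern was nearest to that of *Itga4* were sought by the Euclidean distance of log2(CPM + 0.5) over the 6 libraries. Among the 5 nearest, in order of distance, were *AI838599* (0.507), *Slitrk6* (0.597), *Gabrb2* (0.712) and *Plekhg1* (0.718), none of them on chromosome 2. *Slitrk6*, a membrane protein gene best known from neurons, had 7, 1 and 0 reads in KO, against 78, 140 and 139 reads in WT. These 4 genes had at most 8 reads in each KO library and at least 78 in each WT library, as a match to *Itga4* requires.

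*Vcam1* (ENSMUSG00000027962, chr3:116109949-116129688, minus strand), the ligand gene of the set, had 87.7, 141 and 114 CPM in KO, against 82.1, 70.1 and 76.3 CPM in WT. Each KO library lay above each WT library, although KO1 and WT1 were close. The mean was 114 ± 26.5 CPM in KO and 76.2 ± 6.01 CPM in WT (SD, n = 3 each), a 1.5-fold higher level in KO, and the fitted log2 fold change was 0.58 ± 0.18 (SE). In TPM the separation was not complete, with 16.2, 27.3 and 25.8 TPM in KO, against 16.9, 14.8 and 14.5 TPM in WT, so that KO1 fell within the WT range. The log2 fold change ran from 0.41 to 0.73 when each library was left out in turn. Nearest to *Vcam1* in pattern were *Pak1* (0.257), *Lix1l* (0.318), *Gipc1* (0.362), *Nudt21* (0.383) and *Ltbr* (0.409). *Pak1*, a kinase gene acting downstream of Rac and Cdc42, had 92.0, 123 and 116 CPM in KO, against 80.3, 76.2 and 72.4 CPM in WT, which follows the order of the KO libraries of *Vcam1*.

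*Itga3* (ENSMUSG00000001507, chr11:95044474-95076801, minus strand) had the largest excess in KO among the 9 genes that passed the count filter. It had 83.0, 166 and 115 CPM in KO, against 47.3, 41.4 and 40.1 CPM in WT. The lowest KO library was above the highest WT library, and KO2 lay furthest from WT. The mean level was 2.82-fold higher in KO (121 ± 41.6 against 43.0 ± 3.84 CPM, SD, n = 3 each), with a log2 fold change of 1.50 ± 0.24 (SE) and 1.21 to 1.71 when each library was left out. TPM separated the genotypes as well, with 10.7, 22.3 and 18.4 TPM in KO, against 6.87, 6.06 and 5.38 TPM in WT.

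*Itga6* (ENSMUSG00000027111, chr2:71745616-71858416, plus strand), the second laminin-binding alpha gene, differed in the other direction. It had 151, 30.6 and 45.9 CPM in KO, against 239, 208 and 229 CPM in WT. KO2 and KO3 were far below WT, KO1 lay between them and WT, and no KO library reached the lowest WT library. The mean was 2.97-fold lower in KO, the log2 fold change was −1.57 ± 0.53 (SE), and without KO1 it became −2.56 ± 0.21. *Myh3*, given above, was also near the WT level in KO1 and lower in KO2 and KO3, while *Myod1* and *Cdh15* were higher in each KO library than in any WT library, and the part of these genes in the *Itga6* values was not tested. In RNA from whole cultures, fewer cells that express a gene and less RNA per cell cannot be told apart.

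*Itga7* (ENSMUSG00000025348, chr10:128933818-128958282, plus strand) had 1794, 1109.9 and 1556 CPM in KO, against 1735, 1743 and 2084 CPM in WT. KO1 lay inside the WT range and KO2 and KO3 lay below it, KO2 most. The log2 fold change was −0.32 ± 0.23 (SE), and −0.48 to −0.14 with a library left out, so the direction did not change but the genotypes overlapped. In 9 of the 8092 merged exon bases it overlaps *Mettl7b*.

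The fibronectin receptor gene *Itga5* (ENSMUSG00000000555, chr15:103344286-103366763, minus strand) had 149, 83.8 and 136 CPM in KO, against 140.4, 151 and 145 CPM in WT. KO1 lay inside the WT range, KO3 just below it and KO2 well below it, and the log2 fold change was −0.25 ± 0.21 (SE). *Itgav* (ENSMUSG00000027087, chr2:83724397-83806916, plus strand), whose product pairs with beta1, beta3, beta5, beta6 and beta8, had 206, 168 and 276 CPM in KO, against 162, 169 and 197 CPM in WT. KO3 was highest, KO1 was above the WT libraries and KO2 lay within their range, with a log2 fold change of 0.30 ± 0.20. The predicted gene *Gm13684* overlaps 5.90% of the merged exons of *Itgav*.

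*Itgb1* (ENSMUSG00000025809, chr8:128685654-128733200, plus strand), the shared beta subunit gene, had 1262, 676 and 978 CPM in KO, against 1086, 1136 and 1160.4 CPM in WT. WT libraries were close together, KO1 was above them and KO2 and KO3 were below, so the mean difference (log2 fold change −0.21 ± 0.24) was smaller than the spread among KO libraries. The log2 fold change was −0.45 to −0.01 with a library left out. *Itga11* (ENSMUSG00000032243, chr9:62677826-62783982, plus strand), the collagen-binding alpha gene, had 9.12, 1.79 and 14.1 CPM in KO, against 7.40, 15.5 and 6.06 CPM in WT. Values ran over about the same range in both genotypes (log2 fold change −0.21 ± 0.66), and the sign differed between settings, with a log2 fold change of 0.30 at the highest and −0.83 at the lowest. *Itga9* (ENSMUSG00000039115, chr9:118606690-118901003, plus strand) had 8, 5 and 6 reads in KO, against 4, 0 and 0 reads in WT. It was the only gene of the set to fail the filter on low counts, so it was not tested, and in CPM KO2 (0.115) lay just below WT1 (0.116).

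**Figure D2:**
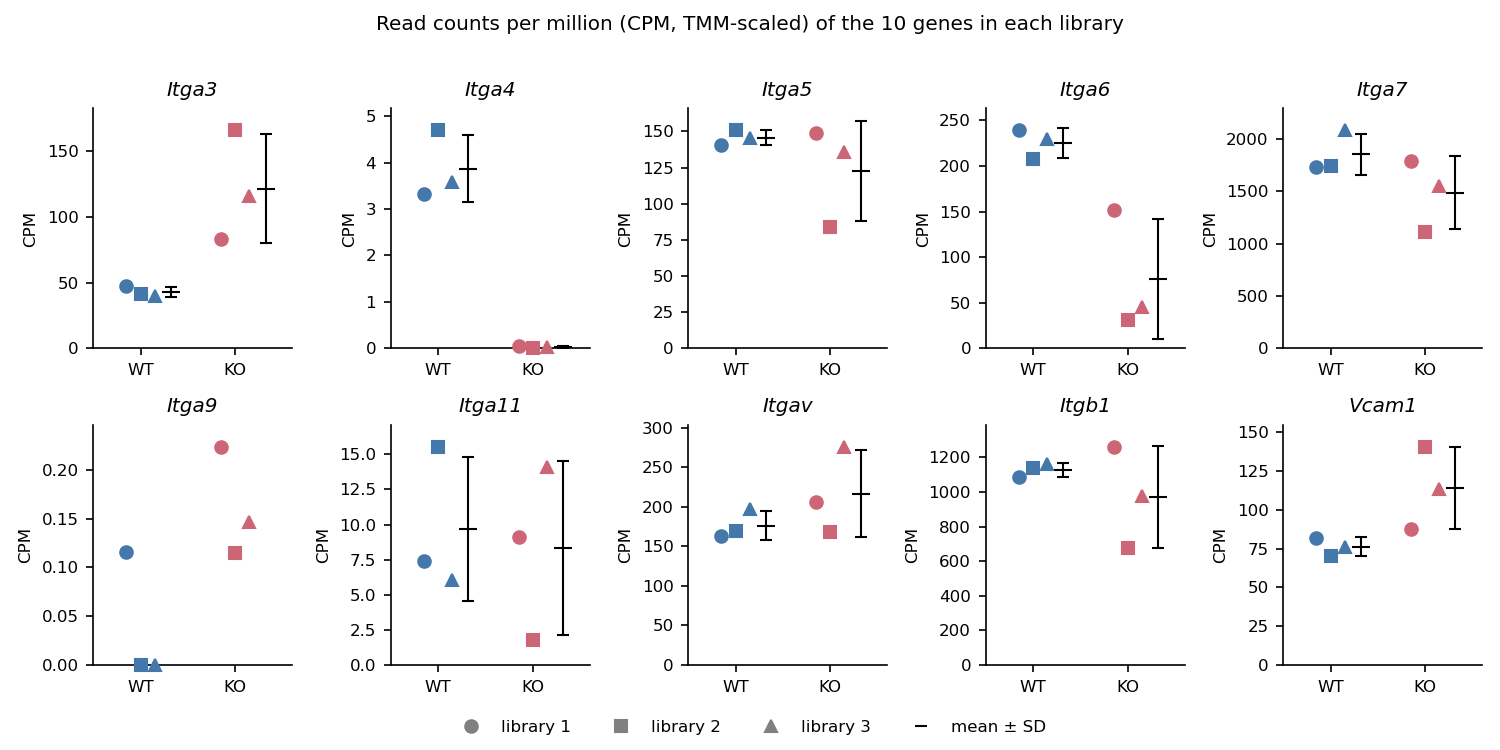
CPM of each of the 10 genes in the 3 WT (blue) and 3 KO (red) libraries, 1 panel per gene with its own axis from 0, with the mean and SD in black except for *Itga9*, which had 0 to 8 reads. KO and WT points are apart for *Itga3*, *Itga4*, *Itga6* and *Vcam1* and overlap for the other genes.

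Of the 10 genes, 9 passed the filter on low counts, and *Itga9* did not. The genotypes were apart, with no overlap of libraries, for 4 of the 9 (*Itga3*, *Itga4*, *Itga6* and *Vcam1*), beside 44.3% of all tested genes. Since the genes were chosen on this contrast, nothing is read from this count. KO2 had the lowest CPM of the KO libraries for *Itga5*, *Itga6*, *Itga7*, *Itga11*, *Itgav* and *Itgb1* and the highest for *Itga3* and *Vcam1*. KO2 also had the most counted reads, 40558740, with the lowest *Myh3* and the highest *Myod1* level of the 3, and the part of these in the integrin values was not tested.

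**Figure D3:**
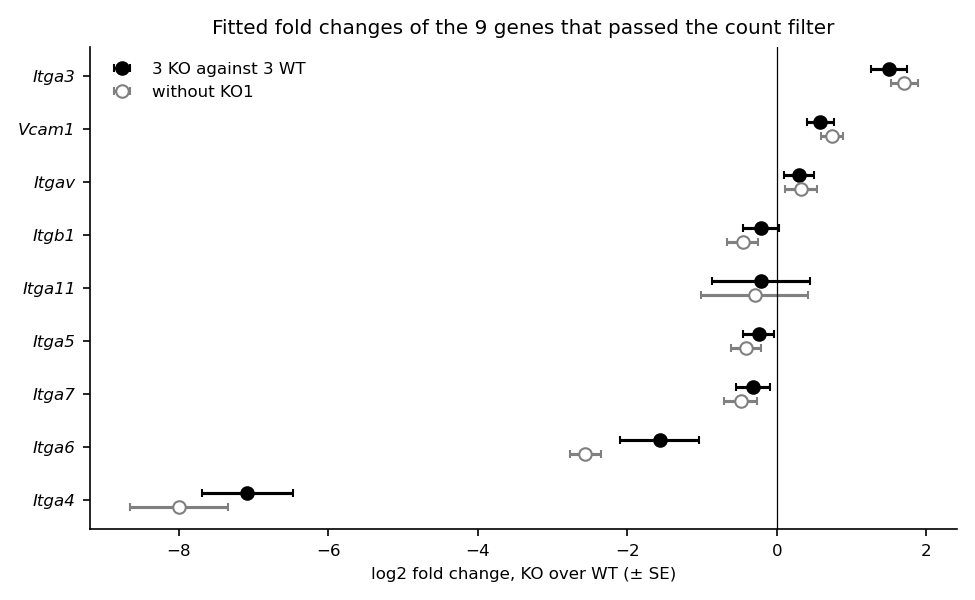
Log2 fold change of KO over WT (± SE, edgeR) of the 9 tested genes, with all 6 libraries (filled) and without KO1 (open). Without KO1 *Itga6* moved from −1.57 to −2.56, *Itga3* and *Vcam1* lay above 0 in both fits, and the *Itga4* value depends on the prior count because KO had only 3 reads.

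Levels were then compared between genes in TPM, within WT first. *Itga7* was highest at 309.9 ± 16.2 TPM (mean ± SD, n = 3), and *Itgb1* followed at 209 ± 9.83. Next came *Itga6* at 39.6 ± 2.86, *Itga5* at 22.4 ± 1.57, *Itgav* at 17.3 ± 0.984 and *Vcam1* at 15.4 ± 1.29 TPM. *Itga3* was at 6.10 ± 0.745, *Itga11* at 1.39 ± 0.797 and *Itga4* at 0.319 ± 0.0714 TPM, and *Itga9* was listed at 0. *Itgav* and *Vcam1* were the only neighbours in this order whose WT ranges overlapped, and the order by median TPM was the same. In KO, *Itga7* (249.5 ± 63.1) and *Itgb1* (179 ± 53.5) came first, with overlapping ranges. *Vcam1* (23.1 ± 6.05), *Itgav* (21.5 ± 7.82), *Itga5* (18.6 ± 5.72), *Itga3* (17.1 ± 5.89) and *Itga6* (12.9 ± 10.3) followed, each overlapping the next, so that no order among these 5 can be given in KO.

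The 8 alpha genes were set against their sum, as the share of each in the summed alpha TPM of a library. *Itga7* made up 78.4%, 76.2% and 78.1% in KO, against 76.8%, 77.6% and 79.7% in WT. Its share thus stayed near the same level while the genes beside it differed. *Itga6* made up 11.1%, 9.66% and 9.19% in WT, against 7.04%, 2.17% and 2.35% in KO. *Itga3* took 3.07%, 9.54% and 4.85% of the sum in KO, against 1.78%, 1.53% and 1.31% in WT. In KO2 and KO3 there was more *Itga3* than *Itga6*, with a TPM ratio of 4.39 and 2.06, whereas the ratio was 0.437 in KO1 and 0.142 to 0.160 in WT.

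The 3 laminin-binding alpha genes together held 85.3% to 88.5% of the alpha sum in KO and 88.8% to 90.2% in WT. *Itgav* stood at 5.23%, 6.78% and 8.0% in KO, against 4.22%, 4.42% and 4.43% in WT, and *Itga5* stood at 5.91%, 5.22% and 6.07% in KO, against 5.71%, 6.10% and 5.11% in WT. *Itga4* made up 0.0622% to 0.10% of the sum in WT. The alpha sum was 234 to 380.4 TPM in KO and 385 to 411 TPM in WT. It was 1.65 to 2.00 times the *Itgb1* level in KO and 1.79 to 2.02 times in WT. These are ratios of RNA, and shares of 1 sum are not independent of each other.

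**Figure D4:**
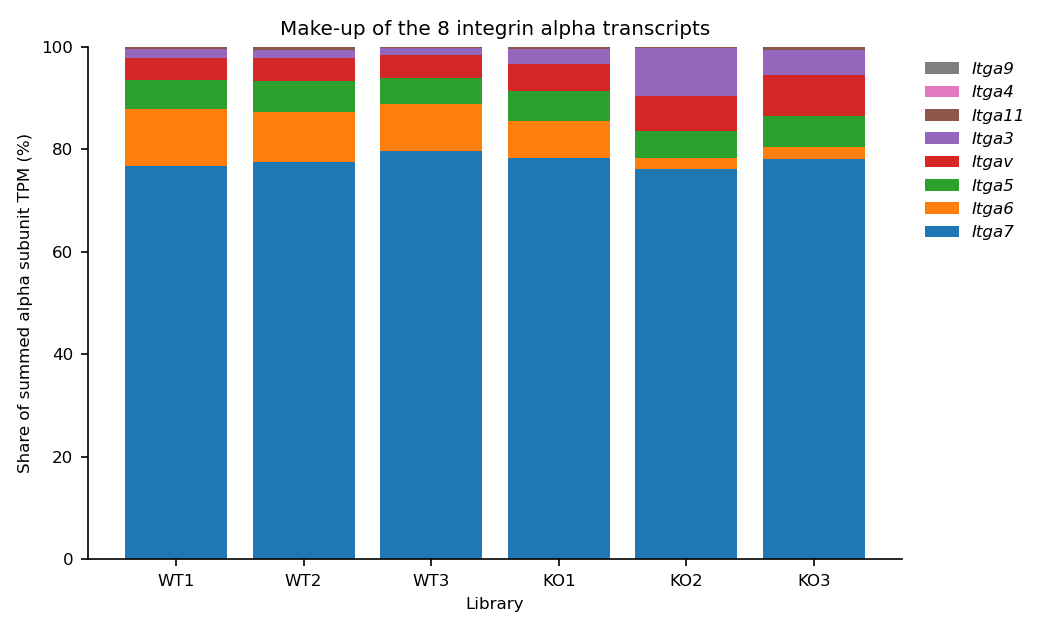
Share of each of the 8 alpha genes in their summed TPM (%, stacked bars from 0 to 100) in each WT and KO library. *Itga7* takes 76.2% to 79.7% everywhere, while the *Itga6* band is narrower in KO (2.17% to 7.04%) than in WT (9.19% to 11.1%) and the *Itga3* band is wider.

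The other genes of the integrin system were taken from 4 lists, and these genes were tested in the edgeR fit over all 14828 genes. Of 18 other integrin subunit genes 14 were tested, of which 1 rose, 1 fell and 12 did not pass (14.3% called, beside 22.7% of all genes). Their median log2 fold change was 0.48, beside 0.03 over all tested genes. *Itgb3*, whose product pairs with that of *Itgav* to bind vitronectin, fibronectin and osteopontin, rose in KO. It had 39.3, 19.1 and 32.3 CPM in KO, against 9.17, 10.9 and 9.54 CPM in WT (log2 fold change 1.62 ± 0.26, adjusted p = 0.00644), and the libraries of the genotypes were apart. *Itga2*, a collagen-binding alpha gene, fell, with 1, 5 and 7 reads in KO, against 17, 26 and 28 reads in WT (log2 fold change −2.64 ± 0.57, adjusted p = 0.0171). That call rests on few reads and was lost without WT1, WT2 or WT3 (adjusted p = 0.0539, 0.0541 and 0.0692). The highest mean CPM and TPM of the list were those of *Itgb5*, another partner of *Itgav*, with 136, 156 and 213 CPM in KO, against 121, 111 and 123 CPM in WT (log2 fold change 0.51 ± 0.18, adjusted p = 0.077). Without KO1, 7 genes of the list passed instead of 2, while over all tested genes 4712 of 15409 passed instead of 3361 of 14828. The added ones of the list were *Itga2b*, *Itga8*, *Itgb2*, *Itgb5* and *Itgb8*. *Itgb8* had 42.0 CPM in KO1 and at most 3.12 CPM in KO2 and KO3.

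Among 24 genes of integrin ligands 21 were tested, and 3 rose, 2 fell and 16 did not pass (23.8% called, beside 22.7% of all genes). Their median log2 fold change was 0.17. *Thbs1*, encoding the matricellular protein thrombospondin-1, had 2314, 1518 and 3380.1 CPM in KO, against 371, 446 and 390 CPM in WT (log2 fold change 2.58 ± 0.31, adjusted p = 0.00262). *Emilin1*, encoding an elastic fibre protein that binds integrins of the *Itga4* and *Itga9* group, had 34.3, 91.1 and 100 CPM in KO, against 5.44, 7.19 and 10.2 CPM in WT (log2 fold change 3.30 ± 0.43, adjusted p = 0.00329). Both were higher in every KO library than in any WT library. *Spp1*, which encodes osteopontin, had 517, 265 and 449 CPM in KO, against 179, 236 and 217 CPM in WT (log2 fold change 0.96 ± 0.25, adjusted p = 0.0314), and this call was lost without KO3, WT1, WT2 or WT3 (adjusted p = 0.0817, 0.134, 0.0633 and 0.103).

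The genes of the list that fell were *Lama2* and *Lamb2*. *Lama2*, the alpha chain of the main laminin of the muscle basement membrane and a ligand of the alpha7 receptor, had 42.5, 69.9 and 85.4 CPM in KO, against 268, 292 and 354 CPM in WT (log2 fold change −2.21 ± 0.26, adjusted p = 0.00252). *Lamb2*, a beta chain gene, had 157, 121 and 151 CPM in KO, against 229.6, 273 and 322 CPM in WT (log2 fold change −0.94 ± 0.17, adjusted p = 0.0101). *Col3a1* had the highest mean CPM and TPM of the list, with 4949, 5938 and 8313 CPM in KO, against 3423, 4489 and 4359 CPM in WT (log2 fold change 0.65 ± 0.28, adjusted p = 0.132), and it passed in DESeq2 (adjusted p = 0.0279) and without KO1 (adjusted p = 0.0487). *Fn1*, the fibronectin gene, named here after its values were seen because it is the classic ligand of *Itga5* and *Itga4* receptors, had 4425, 2174 and 6189.6 CPM in KO, against 1508, 2796 and 1589.6 CPM in WT (log2 fold change 1.12 ± 0.42, adjusted p = 0.0908), and its KO2 library lay within the WT range. Without KO1, 10 ligand genes passed instead of 5, beside 4712 of 15409 tested genes instead of 3361 of 14828. *Icam1*, *Icam2* and *Madcam1*, surface ligands like *Vcam1*, had too few reads to be tested.

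Of 26 adaptor and signalling genes 25 were tested, 5 rose, 2 fell and 18 did not pass (28.0% called, beside 22.7% of all genes). Their median log2 fold change was 0.16. *Lims2*, encoding PINCH2 of the complex with integrin-linked kinase, had 2.85, 3.0 and 2.20 CPM in KO, against 0.231, 0.488 and 0.485 CPM in WT (log2 fold change 2.73 ± 0.38, adjusted p = 0.00427). *Ptk2b*, the focal adhesion kinase relative Pyk2, had 28.3, 17.8 and 20.8 CPM in KO, against 8.59, 6.16 and 8.27 CPM in WT (log2 fold change 1.54 ± 0.23, adjusted p = 0.00502). *Cib2*, a calcium- and integrin-binding protein gene, had 4.48, 8.13 and 5.74 CPM in KO, against 2.72, 1.28 and 1.99 CPM in WT (log2 fold change 1.61 ± 0.35, adjusted p = 0.0181), a call that was lost without WT3 (adjusted p = 0.074). *Src*, the kinase gene, rose by less, with 32.3, 37.0 and 34.1 CPM in KO, against 20.8, 26.7 and 20.1 CPM in WT (log2 fold change 0.62 ± 0.15, adjusted p = 0.0268). *Rsu1*, whose product binds PINCH, had 106, 118 and 132 CPM in KO, against 80.8, 90.9 and 86.4 CPM in WT (log2 fold change 0.46 ± 0.13, adjusted p = 0.0364). *Git1*, a scaffold of adhesion turnover, had 51.9, 42.4 and 34.2 CPM in KO, against 114, 90.1 and 90.4 CPM in WT (log2 fold change −1.20 ± 0.18, adjusted p = 0.00545). *Parvb*, encoding beta-parvin of the same kinase complex as *Lims2*, had 16.8, 9.18 and 8.15 CPM in KO, against 29.8, 23.2 and 24.0 CPM in WT (log2 fold change −1.17 ± 0.28, adjusted p = 0.0241). *Tln1*, the talin gene, which had the highest mean CPM of the list but not the highest TPM, had 644, 511 and 704 CPM in KO, against 752, 934 and 721 CPM in WT (log2 fold change −0.37 ± 0.19, adjusted p = 0.189). The calls of *Rsu1*, *Src* and *Parvb* were each lost on leaving out WT1 (adjusted p = 0.16, 0.123 and 0.0993), KO2, KO3 or WT3, and that of *Rsu1* also without WT2 (adjusted p = 0.0775), while those of *Lims2*, *Ptk2b* and *Git1* held in every such fit. *Ilk*, the kinase of that complex, could not be read from the counts. It had 7 to 21 reads per library although it was listed at 1.84 to 5.27 TPM, and 89.7% of its merged exon bases overlap exons of *Taf10* and *Rrp8*.

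All 11 tetraspanin and membrane partner genes were tested, and 3 rose, 1 fell and 7 did not pass. These calls are 36.4% of 11 genes, beside 22.7% of all tested genes, and the median log2 fold change was 0.10. *Cd151*, a tetraspanin that binds the laminin-binding integrins directly, had 216, 244 and 188 CPM in KO, against 119, 132 and 124 CPM in WT (log2 fold change 0.79 ± 0.14, adjusted p = 0.0087). *Cav1*, the caveolin-1 gene, had 216, 440 and 361 CPM in KO, against 113, 119 and 106 CPM in WT (log2 fold change 1.59 ± 0.25, adjusted p = 0.00594). *Sdc4*, a syndecan that acts with the fibronectin receptor, had 87.2, 112 and 74.3 CPM in KO, against 52.1, 40.8 and 51.5 CPM in WT (log2 fold change 0.92 ± 0.18, adjusted p = 0.0124). *Plaur*, the urokinase receptor gene, fell, with 8.53, 3.30 and 4.37 CPM in KO, against 12.3, 17.5 and 11 CPM in WT (log2 fold change −1.34 ± 0.36, adjusted p = 0.0354). Of the 4, *Cav1* alone kept its call with each library left out, *Cd151* lost it without WT1 (adjusted p = 0.0612), *Sdc4* without WT1 or WT3 (adjusted p = 0.054 and 0.0505), and *Plaur* without KO2, KO3, WT1, WT2 or WT3 (adjusted p = 0.0659 to 0.105). *Slc3a2*, which encodes the CD98 heavy chain and binds beta1 tails, had the highest mean CPM of the list but a lower mean TPM than *Cd63*, *Cd81*, *Bsg* and *Cd82*, with 767, 477 and 647 CPM in KO, against 829, 929 and 813 CPM in WT (log2 fold change −0.44 ± 0.21, adjusted p = 0.153, and 0.0438 without KO1).

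**Figure D5:**
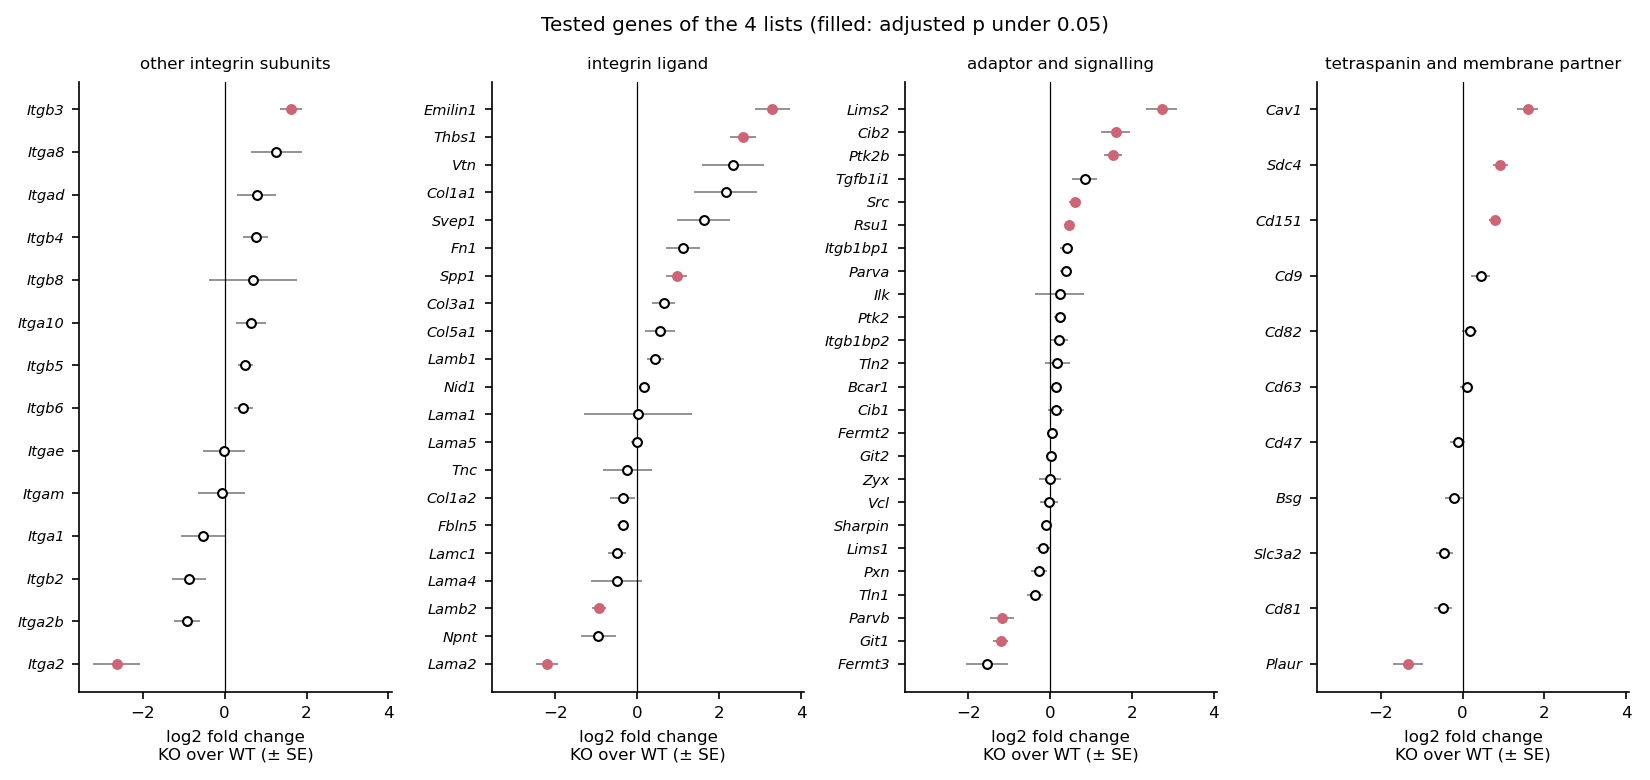
Log2 fold change of KO over WT (± SE, edgeR) of the tested genes of the 4 lists, with genes past an adjusted p of 0.05 filled. *Itgb3*, *Emilin1*, *Thbs1*, *Lims2* and *Cav1* lie to the right of 0 and *Itga2*, *Lama2*, *Git1*, *Parvb* and *Plaur* to the left, and the medians of the 4 lists lie between 0.10 and 0.48.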

How the data were processed

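RNA was sequenced from KO and WT C2C12 cells, 3 libraries each. The authors aligned reads with STAR, counted them on genes with featureCounts and deposited raw read counts of all 6 libraries, of which 0 columns were left unused. They also deposited TPM values from StringTie, per the labels, and rows sharing a gene identifier were summed here. The methods name GRCm39 and the submitters' processing notes mm9, but 93.28% of gene positions in the TPM files lie within 1000 bases of the GRCm38 annotation at both ends. The use of strand and the annotation release are not given in the sources used here.

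Counts were scaled with TMM, filtered with filterByExpr and tested two-sided in edgeR 4.0.16 (R 4.3.3) with genotype alone and Benjamini-Hochberg adjustment at 0.05. At an unadjusted p under 0.05, 5781 genes differed. SE is the log2 fold change over the square root of F. DESeq2 1.42.0, RLE factors, no filter, a replicate block and limma 3.58.1 on log2(TPM + 1) or log2(TPM + 0.1) were alternatives, as was leaving out each library. Replicates differed by far more than counting error (chi-square of 52.5 to 195 per degree of freedom), so none was a duplicate. The limit of a library was set at 3 counts. The fits were also run on simulated counts with known changes and 1 spread for all genes and both genotypes. The real KO libraries differed more from each other (181 to 195 per degree of freedom) than the WT libraries (52.5 to 88.7). The simulation therefore cannot show how the fits perform at the spread of these libraries.

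The 10 genes, the 4 lists and the tests were chosen with earlier results of these data known. Named from the lists were genes past the threshold (at most 8 with the largest change) and the gene with the highest mean CPM. The 3 nearest tested genes on each side of *Itga4*, and the 5 tested genes nearest in pattern to *Itga4* and *Vcam1*, were named too. Genes that these rules select but the text does not name are not reported here.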

Additional observations from a re-analysis of the deposited data

How the results depend on the processing

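Over all genes, 3361 of 14828 passed the threshold, 4373 of 14828 in DESeq2 and 4538 of 30252 with no filter on low counts. In limma, 2366 of 11691 passed on log2(TPM + 1), 2114 of 11691 on log2(TPM + 0.1), and 1056 of 27302 on log2(TPM + 1) with no filter. With a library left out, 933 of 15521 (without WT1) to 4712 of 15409 (without KO1) passed. Of the other integrin subunits 2 passed, 1 in limma with either pseudocount and 0 in limma with no filter (4 there at an unadjusted p under 0.05), 3 in DESeq2, and 1 to 7 with a library left out. Of the ligand genes 5 passed, 9 in DESeq2, 10 with no filter on low counts, 2 in limma with no filter, and 4 to 10 with a library left out. Of the adaptor genes 7 passed, 3 in limma with no filter and 3 to 9 with a library left out, and of the tetraspanin and partner genes 4 passed, 1 in limma with no filter and 1 to 6 with a library left out. The cause of these moves was not tested. From counts per kilobase of exon, the share of *Itga7* was 70.3% in KO and 73.9% in WT, that of *Itga6* 3.02% in KO and 8.09% in WT and that of *Itga3* 8.83% in KO and 2.45% in WT, against mean TPM shares of 77.6% and 78.0% for *Itga7*, 3.85% and 9.99% for *Itga6* and 5.82% and 1.54% for *Itga3*. The log2 fold change took the other sign for *Cwc22* without WT3 (−0.031 to 0.13 over the libraries left out) and for *Ssfa2* without KO1, WT1 or WT2 (−0.15 to 0.10), and for *Myog* without KO1 or WT3 (−0.099 to 0.263). The *Itga4* read ratio was 98.4 to 326 with a library left out, an alternative added after its counts were seen. Signs of *Itga3*, *Itga4*, *Itga6* and *Vcam1* were the same in every setting that could fit them. The r of deviations of same-numbered KO and WT libraries was 0.163, −0.122 and −0.0502. With 3 libraries per genotype these values cannot settle whether replicate numbers paired the samples. With the replicate block 2520 genes passed, with 4 ligand, 6 adaptor and 4 tetraspanin and partner genes. The calls of *Spp1*, *Rsu1* and *Cdh15* were lost there (adjusted p = 0.0682, 0.0676 and 0.0569). *Ube2e3* was at an adjusted p of 0.05 in DESeq2. The calls of *Src* and *Rsu1* were lost in limma with either pseudocount, that of *Rsu1* with no filter on low counts, and those of *Spp1* and *Cdh15* on log2(TPM + 0.1). Depth limits *Itga9*, which had at most 8 reads in a library, and, in KO, *Itga4*.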
